A study of Rattus norvegicus with 102 samples.

Results

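The cadherins and protocadherins of the rat hippocampus were examined as 1 gene family, with Cdh1 left out. The members were taken by name: every gene whose symbol begins with Cdh and a digit, or with Pcdh, other than Cdh1 and the cadherin-related genes whose symbols begin with Cdhr. This gave 73 genes of the 26284 in the Illumina table. RNA came from the CA1, CA3 and dentate gyrus (DG) of 34 male Fisher 344 rats: 10 young (Y, 5 to 6 months), 12 aged unimpaired (OG, 17 to 22 months) and 12 aged impaired (OB, 17 to 22 months). Aged rats were classed by a water maze trial with the platform removed, from their time in the goal quadrant and in the opposite one. Each rat gave 1 library per subfield, and each RNA was read by Illumina sequencing and again on the Ion Proton, so the second table repeats the same RNA and not the animals. The subfields were dissected by hand, so a value is a mean over every cell type in the piece, and fewer cells of a type and less RNA per cell cannot be told apart.

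Cadherins are transmembrane proteins that bind their like on the neighbouring cell through calcium-dependent extracellular repeats, and classical cadherins grip the actin skeleton through catenins. Protocadherins lack the catenin link. The delta protocadherins are single genes that steer axons and synapse number, while the alpha, beta and gamma protocadherins lie side by side in gene clusters, from which each neuron uses a few promoters and so acquires a surface identity of its own. In the hippocampus, different type II cadherins are known to mark different layers and synapses, among them Cdh9 at the synapses that dentate granule cells make on CA3 pyramidal cells.

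By class, the 73 members were 4 type I and 13 type II classical cadherins, 6 other cadherins, 4 delta-1, 5 delta-2 and 2 other protocadherins, and 4 alpha, 18 beta and 17 gamma cluster genes. On chromosome 18 lay 42 of them. A mean normalised count of at least 10 in both tables was required, and 69 of 73 passed. The 4 that did not were Cdh16, Cdh17, Cdh26 and Pcdhb1, with mean Illumina counts of 0.27, 0.63, 2.54 and 0.9.

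Library depth ranged from 3.25 to 42.8 M reads in the Illumina table and from 4.47 to 21.4 M reads in the Ion Proton table. In the Illumina table all libraries of 7 rats held at least 25 M reads, and these are called the deeply sequenced rats. The dissections carried their markers for CA1 and DG: 6 of 6 CA1 pyramidal markers tested were higher in CA1 than in CA3 and DG, and 5 of 5 dentate granule markers were higher in DG. The same 5 granule markers were also called higher in CA1 than in CA3, with a median log2 difference of 1.75. Their summed Illumina level had medians of 3009 in CA1, 663 in CA3 and 6492 in DG. Their part in the differences of members between CA1 and CA3 was not tested. CA3 was less distinct, since 5 of 6 CA3 pyramidal markers were higher in CA3 than in CA1 but 2 of 6 were higher than in DG. By their markers, 11 libraries lay nearer to another subfield than to their label (1 CA1, 6 CA3 and 4 DG libraries), from 8 rats of which 7 carry numbers from 9000 up. In rat R9781 the CA3 library lay nearer to DG and the DG library nearer to CA3. In rat R9869 the CA1 library lay nearer to DG and the DG library nearer to CA1. The values given for rats numbered from 9000 up include the libraries of these rats. Rat numbers fall into 2 series, 18 rats below 9000 and 16 from 9000 up, and no label used here says what separates them. The rats were characterised at 2 sites, and the young and aged rats in each series are as many as at each site, but no label ties a rat to a site, so series and site could not be matched rat by rat. Values within each series, or without the 11 libraries, are given beside many of the results.

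Of the 69 members tested, 38 were called in at least 1 pair of subfields, against 42.6% of all genes, and 31 were called in none. A member was called where limma's Benjamini-Hochberg adjusted p was under 0.05 in both poly-A tables in the same direction. Between CA1 and CA3, 13 members were called (18.8% of members; 14.4% of all genes), 10 higher in CA1 (7.26% of all genes) and 3 higher in CA3 (7.09%). The count between CA1 and CA3 was 15 in the rats numbered below 9000, 2 in those from 9000 up and 24 with the WT table, the third table of the series, in place of the Ion Proton. Between CA1 and DG, 24 were called (34.8%; 26.9% of all genes), 10 higher in CA1 (13.4%) and 14 higher in DG (13.5%). Between CA3 and DG, 27 were called (39.1%; 28.5% of all genes), 9 higher in CA3 (14.1%) and 18 higher in DG (14.3%). The median log2 difference over the members was 0.05, -0.03 and -0.05 for the 3 pairs, against 0.01, 0.00 and 0.01 over all genes. The share of members called lay above that of all genes in each pair, a difference that was not tested, and their medians lay near 0. The library type of the WT table is not given in the sources used here. In it limma called 13 of 13, 21 of 24 and 22 of 27 of these members in the same direction. Of all called genes tested there, 87.1%, 87.8% and 91.6% were. The members not called there were Cdh3, Pcdhac1 and Pcdhga8 between CA1 and DG, and Pcdh15, Pcdhb5, Pcdhga2, Pcdhga9 and Pcdhgb5 between CA3 and DG.

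DG was higher than CA1 and CA3 in 10 members (Cdh8, Cdh9, Cdh12, Cdh13, Pcdh8, Pcdh19, Pcdhb19, Pcdhb21, Pcdhb22 and Pcdhgb6) and lower than both in 4 (Cdh6, Cdh7, Cdh18 and Pcdh10). CA1 was higher than both in 5 (Cdh6, Cdh10, Cdh22, Pcdhb3 and Pcdhb4) and lower than both in 2 (Cdh9 and Pcdh20). CA3 was higher than both in 1 (Pcdh18) and lower than both in 4 (Cdh13, Pcdhb17, Pcdhb22 and Pcdhga3). Over all 13907 genes tested, DG was higher than both in 7.1% and lower in 8.02%, CA1 higher in 2.42% and lower in 3.29%, and CA3 higher in 2.53% and lower in 3.76%, so that DG stood apart most often among all genes as well as among the members.

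**Figure D1:**
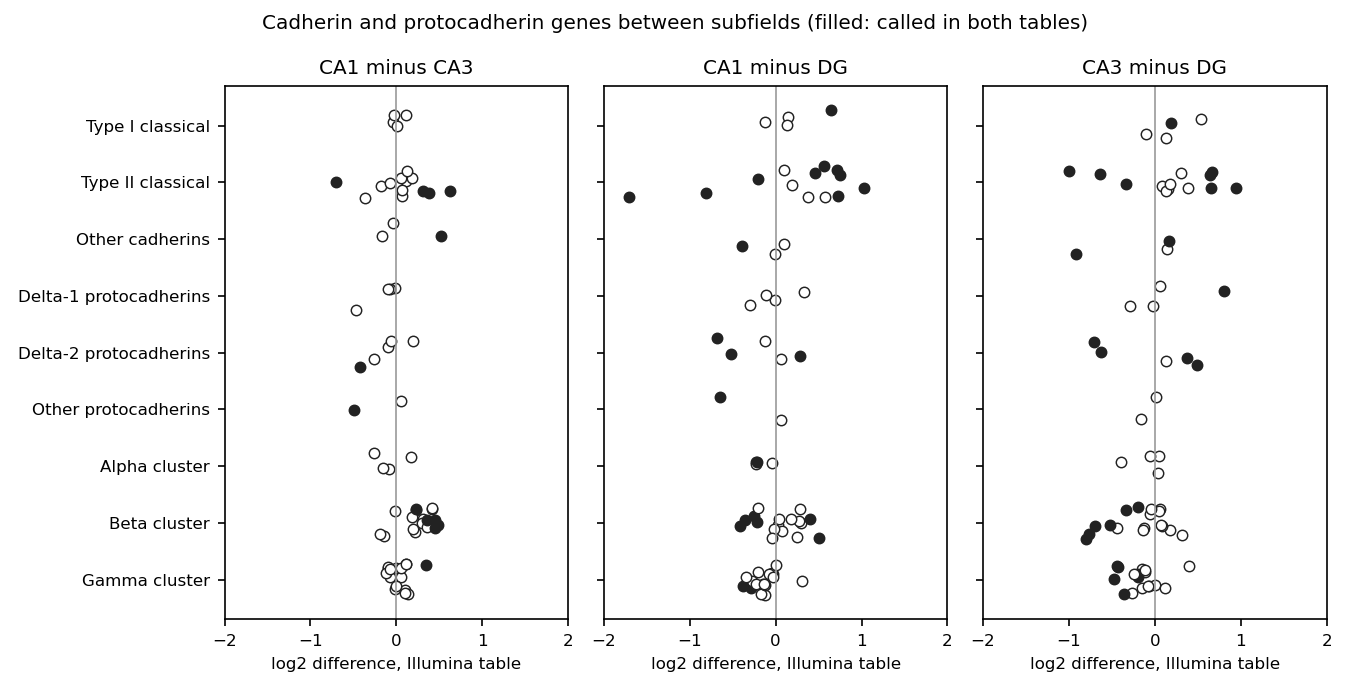
Log2 difference between each pair of subfields (horizontal axis, Illumina table) for the 69 tested members, grouped by class; height within a class carries no value, and filled points are members called in both poly-A tables and open points are not. The type II cadherins spread widest, from Cdh9 at -1.70 to Cdh6 at 1.03 between CA1 and DG.

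The type II classical cadherins were the class called most often between CA1 and DG, with 9 of 13 members called (69.2%; 26.9% of all genes), 6 higher in CA1 and 3 higher in DG. Between CA3 and DG 7 of 13 were called (53.8%; 28.5% of all genes), 4 higher in CA3 and 3 higher in DG, and between CA1 and CA3 4 of 13 (30.8%; 14.4% of all genes), 3 higher in CA1 and 1 higher in CA3. The median log2 difference over the class was 0.46 for CA1 against DG, 0.18 for CA3 against DG and 0.07 for CA1 against CA3.

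Cdh9 (ENSRNOG00000033837, chromosome 2), the cadherin of the granule cell to CA3 synapse, rose in steps from CA1 to CA3 to DG. Its normalised count ranged from 69 through a median of 326 to 634 in CA1, from 78.1 through 626 to 977 in CA3, and from 318 through 1017 to 1349 in DG. The ranges overlapped, but 33 of 34 rats had less Cdh9 in CA1 than in DG and 32 of 34 had less in CA3 than in DG. CA1 lay below DG by a log2 difference of -1.70 ± 0.16 (SE, limma adjusted p = 2.1e-16), with -1.73 in the Ion Proton table. CA3 lay below DG with a log2 difference of -0.997 ± 0.158 (adjusted p = 6.7e-08). CA1 lay below CA3 with a difference of -0.71 ± 0.16 (28 of 34 rats, limma adjusted p = 0.000169). Within the rat number series this last difference was -1.12 below 9000 and -0.24 from 9000 up, where it did not pass the test. Its call was also lost without the deeply sequenced rats.

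Cdh12, a type II cadherin of brain neurons, was also higher in DG than in both CA fields. Its count ran from 35.1 through 84.2 to 115 in CA1, from 37.8 through 86.4 to 229 in CA3 and from 58.4 through 139 to 209 in DG. The medians of CA1 and CA3 nearly coincided. CA1 was lower than DG with a log2 difference of -0.81 ± 0.11 (31 of 34 rats, limma adjusted p = 3.4e-10) and CA3 was lower with a log2 difference of -0.63 ± 0.11 (30 of 34 rats). Cdh8 was lower in the CA fields than in DG by smaller amounts, -0.20 in CA1 and -0.33 in CA3.

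Cdh6, known from developing neural circuits, had the opposite order, highest in CA1 and lowest in DG. Its count ran from 120 through 180 to 309 in CA1, from 81.6 through 144 to 293 in CA3 and from 46.9 through 86.1 to 296 in DG. Only 2 of 34 rats had less Cdh6 in CA1 than in DG. The CA1 to DG difference was 1.03 ± 0.10 (limma adjusted p = 1.0e-14, Ion Proton 1.08), the CA3 to DG difference 0.65 ± 0.10 and the CA1 to CA3 difference 0.37 ± 0.10, all called. The CA1 to DG difference was 1.24 in the rats numbered below 9000 and 0.79 in those from 9000 up.

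Cdh22, a further neuronal type II cadherin, was high in CA1. CA3 and DG were alike in their medians over all rats, though not within each rat number series. Its count ran from 104 through 151 to 209 in CA1, from 59.7 through 96.5 to 258 in CA3 and from 58.5 through 94.6 to 147 in DG. CA1 exceeded DG in 33 of 34 rats, by 0.75 ± 0.09 (limma adjusted p = 1.4e-11); for Cdh22 this was 0.88 below 9000, where the Ion Proton table did not pass, and 0.60 from 9000 up. CA1 exceeded CA3 in 28 of 34 rats, by 0.62 ± 0.09 (limma adjusted p = 1.8e-08), but this was 1.11 in the series below 9000 and 0.07 in the series from 9000 up, where it did not pass.

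Cdh10 was called high in CA1 as well, at 0.46 ± 0.05 against DG (31 of 34 rats) and 0.31 ± 0.05 against CA3 (29 of 34 rats). Cdh7 and Cdh18 separated both CA fields from DG. The median Cdh18 count was 235 in CA1, 223 in CA3 and 140 in DG, a difference of 0.71 ± 0.08 for CA1 (29 of 34 rats) and 0.64 ± 0.08 for CA3 (31 of 34 rats) on the log2 scale. The median Cdh7 count was 56.8, 52.5 and 28.2, with differences of 0.72 ± 0.15 and 0.67 ± 0.15 from DG; for Cdh7 the first was 0.64 from 9000 up, where it lost the call. Both genes showed CA1 and CA3 side by side and DG at a lower level. For Cdh18 the CA1 to DG difference was 0.98 in the series below 9000 and 0.40 in that from 9000 up, where it lost the call. It also lost the call without the deeply sequenced rats.

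**Figure D2:**
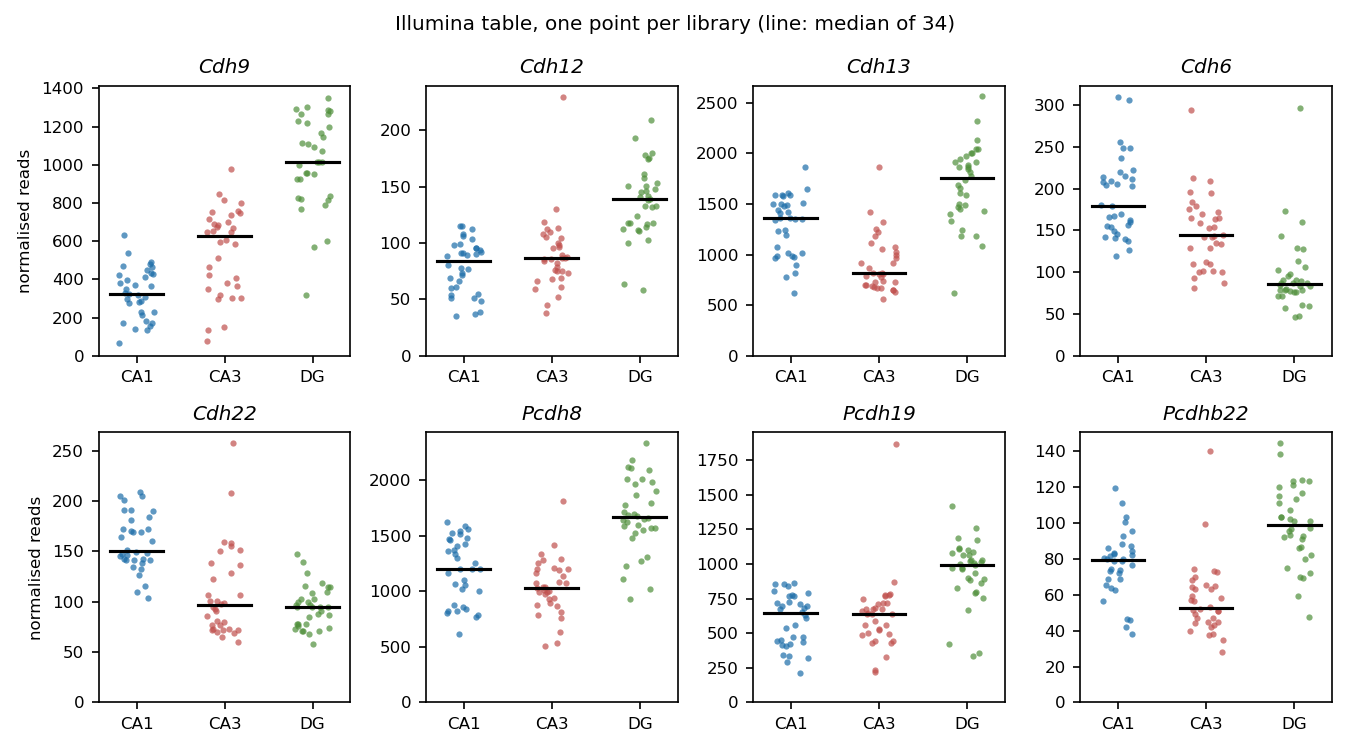
Normalised reads (vertical axis, linear from 0, each panel with its own scale) of 8 members in the 34 libraries of each subfield, Illumina table; each point is a library and each horizontal line the median. Cdh9 and Cdh12 have their highest medians in DG, the Cdh6 medians are 180, 144 and 86.1 from left to right, and Cdh22 has its highest median in CA1.

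The remaining type II cadherins called between subfields were Cdh5 and Cdh19. Cdh5 is VE-cadherin, the adhesion protein of blood vessel walls. Its count ran from 60.8 through 112 to 270 in CA1, from 36.7 through 85.7 to 716 in CA3 and from 23 through 79.3 to 134 in DG. It was higher in CA1 than in DG by 0.56 ± 0.14 (30 of 34 rats, limma adjusted p = 0.000329), and 4 of 8 endothelial markers were called higher in CA1 than in DG too, with a median difference of 0.46; the summed endothelial markers ranged from 1889 to 5068 in CA1 and from 943 to 3443 in DG. Their part in the Cdh5 difference was not tested. The highest Cdh5 count, 716, came from a CA3 library.

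Cdh19, known from glia of the myelinating lineage, was higher in CA3 than in DG by 0.95 ± 0.14 (26 of 34 rats, limma adjusted p = 6.3e-09). Its level ran from 24.4 through 64.2 to 166 in CA3 and from 13.7 through 31.8 to 101.8 in DG. Beside it, 8 of 8 oligodendrocyte markers and 6 of 6 oligodendrocyte precursor markers were higher in CA3 than in DG, with median log2 differences of 0.89 and 0.53; the summed oligodendrocyte markers ranged from 55887 to 389035 in CA3, whereas DG had 45949 to 220904. Their part in the Cdh19 difference was not tested. The Cdh19 difference was 1.76 in rats numbered below 9000 and 0.03 in those from 9000 up, where it did not pass.

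Among the type I cadherins, Cdh2 is N-cadherin, the general adhesion protein of excitatory synapses. It was nearly even: its count ran from 1650 through 1997 to 2244 in CA1, from 1557 through 2020 to 2209 in CA3 and from 1646 through 2167 to 2389 in DG. The CA1 to DG difference of -0.13 ± 0.03 passed in the Illumina table (limma adjusted p = 4.7e-05) and not in the Ion Proton table (adjusted p = 0.0765), so it was not called; with each rat as a block it was. Cdh3 was higher in CA1 than in DG by 0.64 ± 0.22, in 20 of 34 rats. Its count in CA1 ran from 5.01 through a median of 13.4 to 379, so a few libraries were far above the rest; the summed markers of the leptomeninges, the membranes that cover the brain, ran from 386 to 9957 in CA1 and from 118 to 844 in DG. Those of the choroid plexus, the tissue that secretes cerebrospinal fluid, ran from 30.5 through 304 to 154556 in CA1 and from 31.1 through 184 to 3941 in DG. The part of either in the Cdh3 difference was not tested. Cdh15 was called between CA3 and DG at 0.18 ± 0.08.

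Of the other cadherins, Cdh13 is T-cadherin, which is held in the membrane by a lipid anchor in place of a cytoplasmic tail. It was lowest in CA3 and highest in DG. Counts ran from 624 through 1357 to 1868 in CA1, from 562 through 816 to 1868 in CA3 and from 620 through 1757 to 2564 in DG. The ranges overlapped widely while the medians were far apart. CA3 was lower than DG with a log2 difference of -0.91 ± 0.09 (30 of 34 rats, limma adjusted p = 5.3e-15, Ion Proton -0.89), and CA1 was lower than DG with a log2 difference of -0.39 ± 0.09 (27 of 34 rats). CA1 was higher than CA3 by 0.52 ± 0.09 (24 of 34 rats, adjusted p = 1.8e-06). The last difference was 1.02 in the rats numbered below 9000 and -0.05 in those from 9000 up, and without the 11 libraries nearer to another subfield it was 0.62. For Cdh13 in CA3 against DG the 2 series gave -1.37 and -0.39, the second not called. Summed dentate granule markers had the same order as Cdh13, with Illumina medians of 3009, 663 and 6492 in CA1, CA3 and DG. Their part in the Cdh13 differences was not tested. Cdh23, whose protein forms the tip links of inner ear hair cells, was not called between any subfields, with median counts of 142 (CA1), 135 (CA3) and 125 (DG). Pcdh15, its partner in the tip link, was called higher in CA3 than in DG at 0.17 ± 0.07, beside the oligodendrocyte precursor markers given for Cdh19, whose part was not tested.

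The delta-2 protocadherins were called in 4 of 5 members between CA3 and DG (80%; 28.5% of all genes), 2 higher in each. Pcdh8, also known as arcadlin, which is induced by neuronal activity and takes part in removing N-cadherin from the synapse, was highest in DG. The normalised count ran from 614 through 1204 to 1623 in CA1, from 506 through 1033 to 1817 in CA3 and from 934 through 1671 to 2339 in DG. CA3 was lower than DG with a log2 difference of -0.71 ± 0.09 (30 of 34 rats, limma adjusted p = 1.1e-11) and CA1 by -0.52 ± 0.08 (31 of 34 rats). Pcdh8 in CA3 against DG kept its direction within both series, at -0.85 and -0.55.

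Pcdh19 (ENSRNOG00000003929, chromosome X), an X-linked delta-2 protocadherin whose mutation in people causes an epilepsy, was higher in DG as well. Across libraries it ran from 214 through 643 to 865 in CA1, from 217 through 641 to 1868 in CA3 and from 336 through 996 to 1418 in DG. CA1 and CA3 had nearly the same median. CA1 was lower than DG with a log2 difference of -0.69 ± 0.12 (30 of 34 rats, limma adjusted p = 1.3e-06) and CA3 one of -0.62 ± 0.12 (30 of 34 rats), with -0.41 and -0.52 in the Ion Proton table. For Pcdh19 the call against CA1 was lost below 9000 (-0.59), and that against CA3 from 9000 up (-0.46). The call against CA1 was also lost with edgeR or DESeq2 on reads recovered from the counts, and without the deeply sequenced rats.

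Pcdh10 and Pcdh18 ran the other way. Pcdh10, which takes part in activity-dependent synapse removal, was lower in DG, with median counts of 907, 1008 and 730 in CA1, CA3 and DG and differences of 0.28 ± 0.05 and 0.37 ± 0.05 from DG. Pcdh18 was highest in CA3, with a CA1 minus CA3 difference of -0.42 ± 0.09 and a CA3 minus DG difference of 0.49 ± 0.09. For Pcdh18 the CA1 to CA3 difference was -0.77 in the series below 9000 and -0.03 in that from 9000 up. Summed oligodendrocyte precursor markers had Illumina medians of 5537, 6022 and 3916 in CA1, CA3 and DG. Of these markers 6 of 6 were called higher in CA3 than in DG and 0 between CA1 and CA3. Their part in the Pcdh18 differences was not tested. Pcdh17 was called in no pair, since its CA1 to CA3 difference of -0.26 ± 0.07 passed in the Illumina table alone.

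Among the delta-1 protocadherins 1 of 4 was called in any pair, against 42.6% of all genes. Pcdh11x, an X-linked member, had low counts, with medians of 25.6 in CA1, 37.1 in CA3 and 18.7 in DG. It was higher in CA3 than in DG by 0.80 ± 0.18 (28 of 34 rats, limma adjusted p = 6.5e-05), 0.52 in the series below 9000 and 1.12 in that from 9000 up. The 6 oligodendrocyte precursor markers moved the same way, as given for Cdh19, and their part here was not tested. Pcdh20, classed apart from the delta genes here, was low in CA1. Its values ran from 612 through 897 to 1779 in CA1, from 504.1 through 1514 to 2466 in CA3 and from 674 through 1565 to 2002 in DG. CA1 was lower than DG in 32 of 34 rats, with a log2 difference of -0.65 ± 0.11 (limma adjusted p = 2.4e-07). CA1 was lower than CA3 in 26 of 34 rats, by -0.49 ± 0.11, which was -1.10 in the series below 9000 and 0.19, in the opposite direction and not past the test, in that from 9000 up.

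Of the 18 beta cluster genes, 17 were tested. Between CA1 and CA3, 5 of the 17 were called (29.4%; 14.4% of all genes) and all 5 were higher in CA1, with a class median of 0.30. Between CA3 and DG, 6 of 17 were called (35.3%; 28.5% of all genes) and all 6 were higher in DG, with a class median of -0.13. Between CA1 and DG, 2 were higher in CA1 (Pcdhb3 and Pcdhb4) and 4 were higher in DG (Pcdhb13, Pcdhb19, Pcdhb21 and Pcdhb22), together 35.3% against 26.9% of all genes. Beta genes are closely related in sequence, and how the counting treated reads that match more than 1 of them is not given in the sources used here, so the split between neighbours is uncertain.

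The beta genes called higher in CA1 than in DG and those called higher in DG lay at opposite ends of the cluster, as far as their order is known. RefSeq on the GRCr8 build lists 16 of the 17 tested beta genes in 1 order along chromosome 18, from Pcdhb2 to Pcdhb22, with Pcdhb13 not among them. At the Pcdhb2 end the CA1 to DG log2 differences were 0.28 for Pcdhb2, 0.51 for Pcdhb3 and 0.40 for Pcdhb4. At the Pcdhb22 end they were -0.22 for Pcdhb19, -0.04 for Pcdhb20, -0.41 for Pcdhb21 and -0.36 for Pcdhb22. Spearman's rho between a gene's place in the order and its CA1 to DG difference was -0.86 over the 16 genes in the Illumina table and -0.88 in the Ion Proton table. For CA3 against DG rho was -0.74 and -0.82, and for CA1 against CA3 it was 0.26 and -0.06. These are descriptions: the genes share libraries and sequence, and CA1 and CA3 share the DG libraries. In the gamma cluster the same measure over 13 genes was -0.32 and 0.03 for CA1 against DG.

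**Figure D3:**
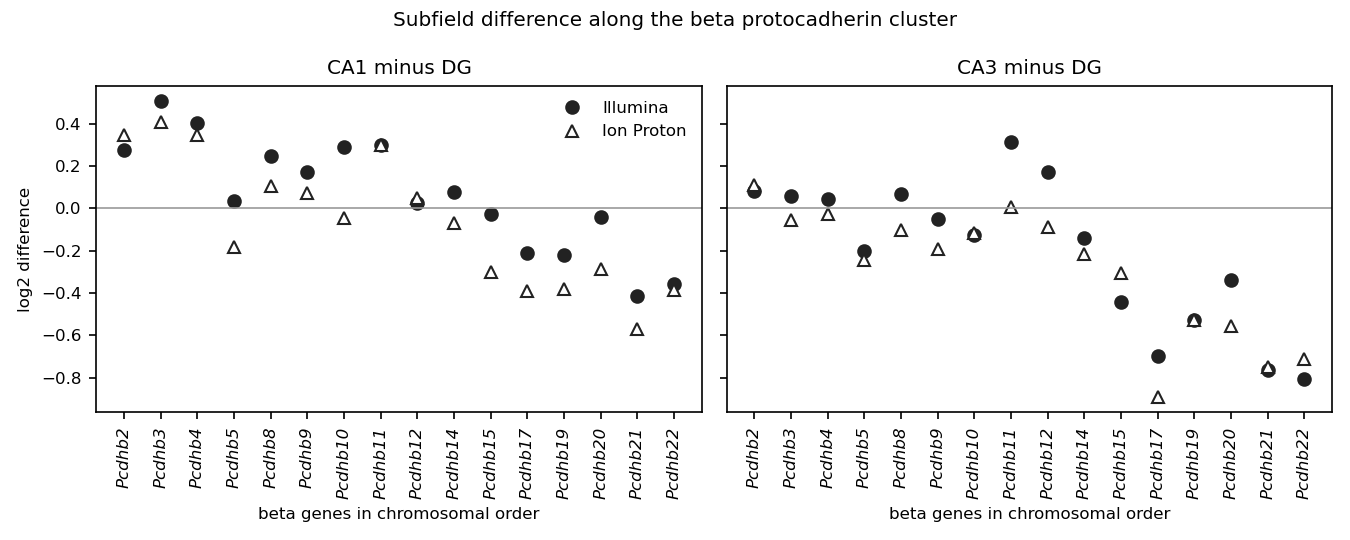
Log2 difference (vertical axis) of the 16 beta cluster genes in their chromosomal order (horizontal axis, from Pcdhb2 to Pcdhb22), for CA1 minus DG and CA3 minus DG; filled circles are the Illumina table and open triangles the Ion Proton table. In the Illumina table the CA1 minus DG values go from 0.28 for Pcdhb2 and 0.51 for Pcdhb3 to -0.36 for Pcdhb22. The CA3 minus DG values go from 0.08 for Pcdhb2 to -0.80 for Pcdhb22. The lowest point is Pcdhb17 at -0.89, for CA3 minus DG in the Ion Proton table.

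Each clustered protocadherin variable exon has its own promoter, and most of these promoters carry a conserved sequence element, bound by CTCF, with the core CGCT. The promoters were read to see whether both ends of the beta cluster share that element. Of the 73 members, 49 had a RefSeq GRCr8 promoter entry of 300 bases (250 before to 50 after the start), including 14 of 18 beta genes. The run of 10 letters present in most beta promoters was GGTGGCGCTG. Searched on both strands, it occurred in 12 of those 14 (85.7%), a share that follows from choosing the letters there and tests nothing. All 33469 promoters of that length, of 27457 genes, held it in 74 cases (0.221%), and without those of the beta members it was 62 of 33455 (0.185%). It occurred in 0 of 11 gamma members and 0 of 24 members outside the clusters. The 5 stretches below come from both ends of the cluster, each 50 bases on the plus strand with the match in capitals. Pcdhb3 and Pcdhb4 were called higher in CA1 than in DG, Pcdhb19 and Pcdhb21 higher in DG than in both CA fields and Pcdhb20 higher in DG than in CA3 alone. Pcdhb22 had no promoter entry.
Pcdhb3, chr18:29285589-29285638: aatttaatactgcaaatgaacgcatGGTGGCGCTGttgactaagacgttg
Pcdhb4, chr18:29292196-29292245: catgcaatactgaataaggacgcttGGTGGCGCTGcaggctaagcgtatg
Pcdhb19, chr18:29478749-29478798: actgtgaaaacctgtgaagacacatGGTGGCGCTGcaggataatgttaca
Pcdhb20, chr18:29485795-29485844: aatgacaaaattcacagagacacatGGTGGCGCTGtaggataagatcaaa
Pcdhb21, chr18:29492134-29492183: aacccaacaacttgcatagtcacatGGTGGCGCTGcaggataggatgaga
The match began 61, 69, 74, 68 and 60 bases before the start of Pcdhb3, Pcdhb4, Pcdhb19, Pcdhb20 and Pcdhb21. Genes at both ends of the cluster thus carried the same 10 letters, and a match is a description of sequence, not of binding.

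Of the beta genes called between CA1 and CA3, Pcdhb4 was higher in CA1 in the most rats, 31 of 34. Libraries ran from 71.5 through 107 to 154 in CA1, from 59.1 through 86.5 to 130 in CA3 and from 47.3 through 82.3 to 153 in DG. CA1 exceeded CA3 by 0.36 ± 0.08 (limma adjusted p = 0.000246) and DG by 0.40 ± 0.08 (30 of 34 rats), while CA3 and DG differed by 0.04. Pcdhb4 kept its direction within both series but lost the first call below 9000 (0.30) and the second from 9000 up (0.39). Pcdhb3 was also higher in CA1 than in both, by 0.45 ± 0.08 against CA3 and 0.51 ± 0.08 against DG. For Pcdhb3 the difference from CA3 was 0.29 below 9000, where it lost the call, and 0.63 from 9000 up.

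Pcdhb22, at the other end, was lowest in CA3. Its level ran from 38.2 through 79.5 to 119 in CA1, from 28.4 through 52.6 to 140 in CA3 and from 47.8 through 99.1 to 145 in DG. CA3 was lower than DG with a log2 difference of -0.80 ± 0.09 (31 of 34 rats, limma adjusted p = 2.0e-12, Ion Proton -0.71), -1.10 in the series below 9000 and -0.47 in that from 9000 up, where Pcdhb22 lost the call. Its CA1 to CA3 difference of 0.45 was 0.79 below 9000 and 0.06 from 9000 up, where it did not pass. That call was also lost without the deeply sequenced rats. Summed dentate granule markers had the same order, with Illumina medians of 3009, 663 and 6492 in CA1, CA3 and DG. Their part in the Pcdhb22 differences was not tested. Pcdhb21 and Pcdhb17 were lower in CA3 than in DG with log2 differences of -0.77 ± 0.14 and -0.70 ± 0.10. For Pcdhb17 it was -0.96 in the series below 9000 and -0.40 in that from 9000 up, called in both. Its CA1 to CA3 difference was 0.75 and 0.19, called in neither series. For Pcdhb21 the CA3 to DG difference was -1.24 in the series below 9000 and -0.23 in that from 9000 up, where it did not pass.

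In the gamma cluster 6 of 17 genes were called between CA3 and DG, a share of 35.3% near the 28.5% of all genes, and all 6 were higher in DG (Pcdhga2, Pcdhga3, Pcdhga9, Pcdhgb5, Pcdhgb6 and Pcdhgb8, between -0.20 and -0.47). The class median was -0.15. In the WT table Pcdhga2 (-0.05), Pcdhga9 (-0.10) and Pcdhgb5 (-0.13) did not pass. Between CA1 and DG 2 of 17 were called (11.8%; 26.9% of all genes) and between CA1 and CA3 1 of 17 (5.88%; 14.4%). Pcdhgb6 and Pcdhga8 were also lower in CA1 than in DG, at -0.38 ± 0.07 and -0.28 ± 0.08, and Pcdhga8 did not pass in the WT table (-0.12). In the alpha cluster 1 of 4 genes was called, against 42.6% of all genes called in any pair. It was Pcdhac1, lower in CA1 than in DG with a log2 difference of -0.21 ± 0.07 (WT -0.08, limma adjusted p = 0.0784, not past the test). Genes of the alpha and gamma clusters share their last exons, and reads there cannot be given to 1 gene.

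Genes of the proteins that work with cadherins were counted in the same way. Of 16 catenin and junction entries (14 symbols, of which Ctnna3 and Ctnnd2 have 2 identifiers each), 7 were called higher and 3 lower in CA1 than in DG (62.5% called; 26.9% of all genes), 7 higher and 1 lower in CA3 than in DG (50%; 28.5%), and 2 higher and 2 lower in CA1 than in CA3 (25%; 14.4%). Plekha7, an adherens junction linker, was higher than in DG by 0.83 in CA1 and 0.59 in CA3. Ctnna1, the alpha-catenin found in most cell types, was higher than in DG by 0.37 and 0.39, while Ctnna2, the neuronal alpha-catenin, was lower in CA3 than in DG with a log2 difference of -0.38 and higher in CA1 than in CA3 by 0.30. Beta-catenin, Ctnnb1, was lower in CA1 than in DG with a log2 difference of -0.17. In both CA fields 8 of 8 oligodendrocyte and 6 of 6 oligodendrocyte precursor markers were called higher than in DG. Their part in the catenin and junction differences was not tested.

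Of the 12 other cadherin superfamily genes tested, 5 were called between CA1 and DG (41.7%; 26.9% of all genes), 6 between CA3 and DG (50%; 28.5%) and 2 between CA1 and CA3 (16.7%; 14.4%). Fat4, a giant cadherin of planar polarity, was higher in DG, with log2 differences from DG of -1.15 in CA1 and -1.63 in CA3. Dchs2, of the family that binds Fat4, was lower in DG, with differences of 1.04 and 1.38. Clstn2, a calsyntenin of the postsynaptic membrane, was lower than in DG with a log2 difference of -1.11 in CA1 and -0.69 in CA3. Of 19 protocadherin partners and regulators, 10 were called between CA3 and DG (52.6%; 28.5% of all genes) and all 10 were higher in DG. Between CA1 and DG 3 were called, all higher in DG (15.8%; 26.9%), and between CA1 and CA3 7, of which 6 were higher in CA1 (36.8%; 14.4%). Among the 10 were the kinases that clustered protocadherins inhibit, Ptk2 (-0.34) and Ptk2b (-0.36), Ctcf itself (-0.19) and Smchd1, a chromatin protein that silences clustered protocadherins (-0.26).

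Age was compared within each subfield, 24 aged against 10 young rats. A member was called where limma's p was under 0.01 in the Illumina table and its one-sided p was under 0.05 the same way on the Ion Proton. In CA1 3 of 69 members were called (4.35% of members; 0.851% of all genes), and the 3 were higher in aged rats (0.692% of all genes were higher and 0.159% lower). In CA3 it was 3 (4.35%; 0.402% of all genes), higher too (0.344% higher and 0.0574% lower). In DG it was 7 (10.1%; 1.09% of all genes), of which 6 were higher (0.94% of all genes) and 1 lower (0.153%). Only Cdh23, in CA1 and in DG, also had a limma adjusted p under 0.05 over all genes in the Illumina table, as 0.324% of genes did in CA1, 0% in CA3 and 0.299% in DG; the other calls did not hold up after that correction.

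Cdh23 was higher in aged rats in all 3 subfields. In CA1 its count ran from 62.8 through 96.9 to 156 in young and from 110 through 149 to 189 in aged rats (98.6 ± 28 against 151 ± 19.1, SD, n = 10 and 24). All 24 aged CA1 libraries lay above the young median, a log2 difference of 0.65 ± 0.10 (limma adjusted p = 0.000785), and 20 of 24 did in the Ion Proton table (0.49). In DG the count ran from 74 through 95.7 to 153 in young and from 108 through 135 to 161 in aged rats, with all 24 above the young median and a difference of 0.47 ± 0.08 (limma adjusted p = 0.0019; Ion Proton 0.61, adjusted p = 0.0108). In CA3 the count ran from 68.7 through 103 to 158 in young and from 114 through 149 to 227 in aged rats. The CA3 difference of 0.59 ± 0.12 was called, but its limma adjusted p was 0.0804.

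Both aged groups were set against the young. Against the young rats, Cdh23 was higher by 0.69 ± 0.12 in unimpaired and 0.60 ± 0.13 in impaired rats in CA1, and by 0.48 ± 0.10 and 0.46 ± 0.10 in DG, with 12 of 12 rats above the young median each time; in CA3 the differences were 0.59 ± 0.15 and 0.58 ± 0.15, again with 12 of 12 rats above, and the impaired rats were not called because the Ion Proton value of 0.36 did not pass. Both use the same 10 young rats. In the WT table Cdh23 in DG was higher by 0.23 (p = 0.138) in unimpaired and 0.43 (p = 0.00152) in impaired rats, so with that table in place of the Ion Proton the unimpaired call was lost. The WT values for unimpaired rats were 0.42 in CA1 and 0.36 in CA3. Within the rat number series the Cdh23 age difference was 0.81 and 0.50 in CA1, 0.57 and 0.38 in DG, and 0.37 and 0.82 in CA3, where the lower value, from the series below 9000, was not called. For each aged group alone, calls of Cdh23 were lost for unimpaired rats in CA1 below 9000 (0.87, not past the Ion Proton), in CA3 below 9000 (0.36, p = 0.0628) and in DG from 9000 up (0.37, p = 0.0145), and for impaired rats from 9000 up in CA1 (0.50) and DG (0.39, p = 0.0125). Without the libraries nearer to another subfield the age difference was 0.63, 0.44 and 0.55 in CA1, DG and CA3. Markers of microglia, the immune cells of the brain, were also higher with age, 6 of 10 in CA1, 2 of 10 in CA3 and 8 of 10 in DG. In CA1 their summed level ranged from 4411 to 6633 in young, 4529 to 8205 in unimpaired and 4919 to 7725 in impaired rats, and their part in the Cdh23 difference was not tested.

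**Figure D4:**
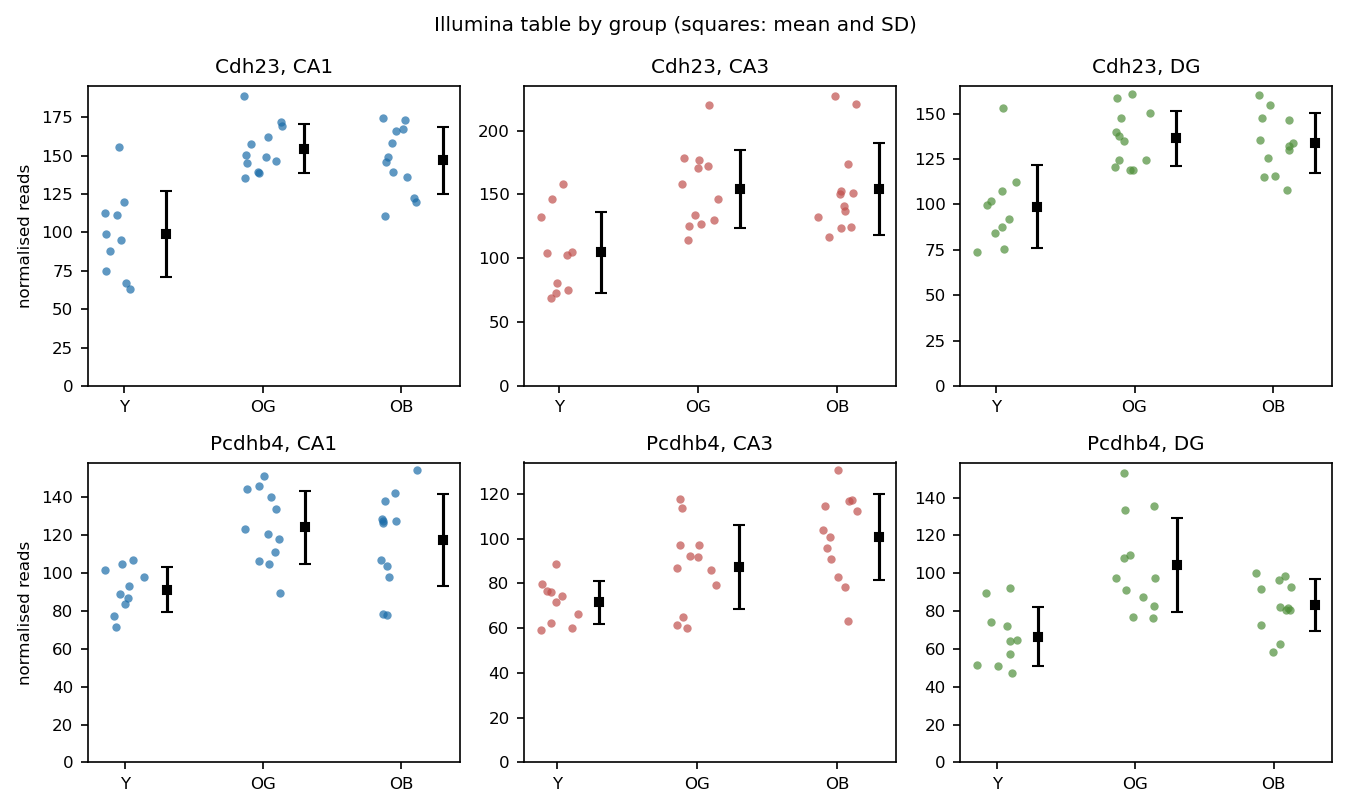
Normalised reads (vertical axis, from 0) of Cdh23 and Pcdhb4 in young (Y), aged unimpaired (OG) and aged impaired (OB) rats in each subfield, Illumina table; each point is a library, and squares with bars are the group mean and SD. The aged CA1 libraries of Cdh23 lie between 110 and 189, all above the young median of 96.9.

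Pcdhb4, the beta gene high in CA1, was also called higher with age in every subfield. In CA1 its count ran from 71.5 through 91 to 107 in young and from 78.1 through 125 to 154 in aged rats. In CA3 it ran from 59.1 through 73.2 to 88.8 and from 60.2 through 94 to 130, and in DG from 47.3 through 64.4 to 92.4 and from 58.2 through 91.5 to 153. The groups overlapped in each subfield, with 21, 20 and 22 of 24 aged rats above the young median. The differences were 0.39 ± 0.09, 0.37 ± 0.11 and 0.49 ± 0.12 on the log2 scale, with limma adjusted p of 0.0594, 0.463 and 0.0636. Within the series the differences below 9000 and from 9000 up were 0.44 and 0.35 for CA1, 0.30 and 0.44 for CA3, and 0.42 and 0.57 for DG; in CA1 from 9000 up and in CA3 in both, Pcdhb4 was not called. The WT table gave 0.19 (p = 0.102) in CA1, so with it in place of the Ion Proton the Pcdhb4 call in CA1 was lost, and 0.43 in both CA3 and DG.

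Of the 17 beta genes tested, 1 in CA1, 1 in CA3 and 4 in DG were called with age (5.88%, 5.88% and 23.5%; 0.851%, 0.402% and 1.09% of all genes). The one called in CA1 and in CA3 was Pcdhb4, and in DG they were Pcdhb4, Pcdhb14 (0.36 ± 0.11), Pcdhb8 (0.40 ± 0.12) and Pcdhb5 (0.31 ± 0.09). Below 9000 Pcdhb14 and Pcdhb5 were not called (0.37 and 0.32), and from 9000 up none of these 3 was (0.32, 0.35 and 0.29 for Pcdhb14, Pcdhb8 and Pcdhb5). The rest did not pass. With Pcdhb4 included, 15, 16 and 17 of the 17 had a fitted aged minus young difference above 0 in the Illumina table, as had 6544 of 13868, 6029 of 13942 and 6731 of 13728 genes, and 9, 13 and 13 had it in both poly-A tables. The class median was 0.11, 0.19 and 0.16, against medians over all genes of 0.00, -0.01 and 0.00; in the Ion Proton table it was 0.01, 0.17 and 0.09. Of the gamma genes, Pcdhga1 was called in CA1 (0.39 ± 0.13) and Pcdhga6 in CA3 (0.31 ± 0.10) and DG (0.27 ± 0.08). Pcdhga1 was called in neither series alone (0.45 below 9000 and 0.36 from 9000 up), nor with edgeR or DESeq2. Pcdhga6 in CA3 was 0.41 below 9000 and 0.19 from 9000 up (p = 0.16) and was called in neither, nor without the libraries nearer to another subfield (0.33). Pcdhga6 in DG was 0.30 below 9000 and 0.25 from 9000 up, where it lost the call.

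A single member was called lower in aged rats, Cdh11, a type II cadherin, in DG. Its count there ran from 975 through 1104 to 1174 in young and from 901 through 1005 to 1126 in aged rats. The fall was small, -0.13 ± 0.03 on the log2 scale, with 23 of 24 aged rats under the young median (limma adjusted p = 0.0624). The WT table gave 0.00 for it, and in neither series alone was Cdh11 called (-0.13 in both).

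Each aged group was also set against the young rats on its own. In CA1 the unimpaired rats had 5 members called (0.621% of all genes), Cdh23, Pcdhb4, Pcdhga1 and Pcdhga5 higher and Cdh8 lower (-0.23 ± 0.08, 12 of 12 rats under the young median), and the impaired rats had 3 (1.23% of all genes), Cdh23 and Pcdhb4 higher and Pcdh20 lower. Pcdh20 ran from 870 through 984 to 1449 in young and from 612 through 742 to 1779 in impaired CA1, a difference of -0.45 ± 0.15 (10 of 12 rats, limma adjusted p = 0.406). In CA3 the counts were 3 (Cdh23, Pcdhb3 and Pcdhga6; 0.394% of all genes) and 1 (Pcdhb4; 0.28%), and in DG 6 (Cdh23, Pcdhb4, Pcdhb5, Pcdhb14 and Pcdhga6 higher, Cdh11 lower; 0.635%) and 1 (Cdh23; 0.968%). Cdh8 was called in neither series alone (-0.21, p = 0.0166, below 9000 and -0.25, p = 0.0247, from 9000 up, by limma), nor without the libraries nearer to another subfield (-0.22, p = 0.012), and the WT table gave -0.10 (p = 0.199). The WT table also gave 0.16 for Pcdhga5 in unimpaired and 0.10 for Pcdhb4 in impaired CA1, and both calls were lost with it. Below 9000 and from 9000 up, unimpaired rats gave 0.37 and 0.48 for Pcdhga1 and 0.29 and 0.47 for Pcdhga5 in CA1, and 0.44 and 0.32 for Pcdhb3 in CA3, called in neither series. Unimpaired Pcdhga1 lost its call in 7 of 11 alternatives. Among them were edgeR, DESeq2, no filter, quantile normalisation and leaving out the nearer libraries (0.40, limma p = 0.0153). Unimpaired Pcdhga6 in CA3 was 0.50 below 9000 and 0.13 from 9000 up, where it lost the call. In unimpaired DG, Pcdhb5 (0.36 below 9000 and 0.32 from 9000 up) and Cdh11 (-0.13 and -0.15) were called in neither series, and Pcdhb14 (0.34) and Pcdhga6 (0.25) lost the call from 9000 up. Impaired Pcdhb4 was called in neither series in CA1 (0.37 and 0.34) nor in CA3 (0.39 and 0.57). Impaired Pcdh20 was -0.33 from 9000 up and not called, nor was it called with edgeR, with DESeq2 or without the deeply sequenced rats. None of these members had a limma adjusted p under 0.05 in the Illumina table, as 0.0216% of genes did for impaired rats in CA1, 0.0947% for impaired and 0.0511% for unimpaired rats in DG, and 0% elsewhere; the difference between the aged groups is tested only in what follows.

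Cognition was compared within the aged rats, 12 impaired against 12 unimpaired. By the same rule as for age, 0 members were called in CA1 (0.635% of all genes; 4 members at an unadjusted limma p under 0.05), 1 in CA3 (0.0216%) and 0 in DG (0.124%; 2 at an unadjusted p under 0.05). With edgeR or DESeq2 on the recovered reads, 1 member was called in CA1.

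The member called in CA3 was Pcdh19, higher in impaired rats. Its Illumina count ran from 217 through 496 to 721 in unimpaired and from 523 through 669 to 1868 in impaired CA3. All 12 impaired rats lay above the unimpaired median, although the groups overlapped between 523 and 721. The log2 difference was 0.57 ± 0.20 with an unadjusted limma p of 0.00896 and an adjusted p of 1.00, so it did not hold up after correction over all genes. The Ion Proton count ran from 258 through 676 to 1066 in unimpaired and from 624 through 950 to 3111 in impaired rats, with a difference of 0.67 ± 0.24.

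Pcdh19 in CA3 rested on a few libraries. The highest impaired Illumina count of Pcdh19, 1868, came from rat R9875, and the same RNA gave 1069 in the Ion Proton table. Its CA3 library lay nearer to CA1 and was the shallowest of the Illumina table, at 3.25 M reads. The highest Ion Proton count, 3111, came from rat R1931, for which the Illumina table had 523, the lowest impaired value. Without the CA3 library of rat R9875 the Pcdh19 difference was 0.44 (p = 0.0159) and not called, without that of rat R1931 it was 0.61 and called, and without all libraries nearer to another subfield it was 0.32 (p = 0.0775) and not called. It was 0.17 in the series below 9000 and 1.02 in that from 9000 up, and called in neither. The WT table gave 0.27 (p = 0.15).

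**Figure D5:**
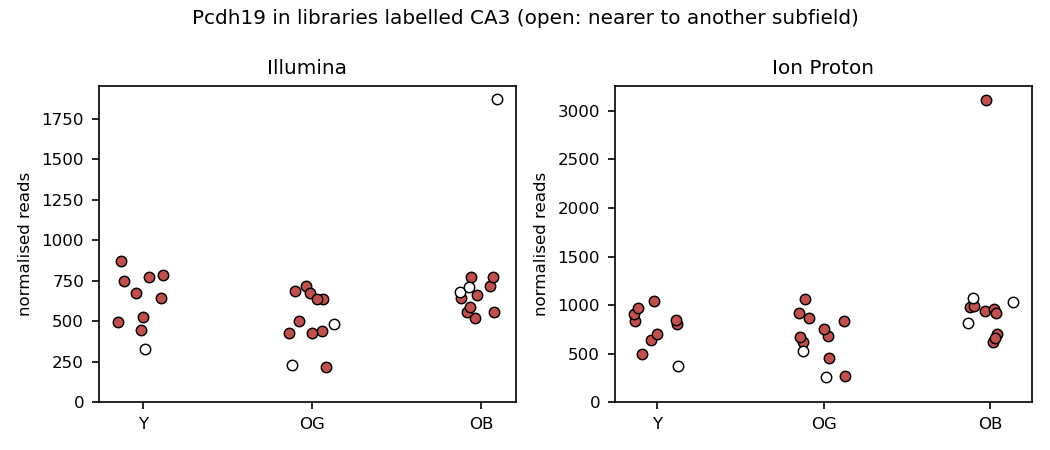
Normalised reads of Pcdh19 (vertical axis, from 0) in the CA3 libraries of young (Y), aged unimpaired (OG) and aged impaired (OB) rats, with the Illumina table on the left and the Ion Proton table on the right; each point is a library, and open points are libraries nearer to another subfield. All 12 impaired rats lie above the unimpaired median of 496 in the Illumina table, and the highest point is an open one at 1868 in the Illumina table and a filled one at 3111 in the Ion Proton table.

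Pcdh17, a delta-2 protocadherin like Pcdh19, was higher in impaired CA3 by 0.29 ± 0.10 in the Illumina table (11 of 12 rats above the unimpaired median, limma p = 0.00836, adjusted p = 1.00) and by 0.26 ± 0.17 in the Ion Proton table, which did not pass, so it was not called. Cdh23 and Pcdhb4, which differed with age, were not called for cognition in any subfield. None of the catenin, cadherin superfamily or protocadherin partner lists had a member called for age or for cognition.

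Whether age or cognition acted differently between subfields was tested as an interaction in limma over every library of the Illumina table. No member had an adjusted p under 0.05 for age or for cognition in any pair of subfields, and no gene of the 13907 tested had one (0%). At an unadjusted p under 0.05 there were 2, 0 and 0 members for age and 5, 2 and 6 for cognition, for CA1 with CA3, CA1 with DG and CA3 with DG, with 1.89%, 0.345% and 1.02% of all genes for age and 5.17%, 3.73% and 2.36% for cognition. The smallest unadjusted p was that of Pcdhb4, whose impaired minus unimpaired difference was higher in CA3 than in DG by 0.51 ± 0.16 (limma p = 0.00188, adjusted p = 1.00). The shares of all genes for age lay under the 0.05 that such a cut gives where nothing differs, so the test may miss real differences. The rise of Cdh23 and Pcdhb4 with age was thus not shown to differ between subfields, nor shown to be equal.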

How the data were processed

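Poly-A libraries of dissected subfields were read on Illumina and Ion Proton instruments. For the Illumina table the authors used bcl2fastq 2.17, cutadapt 1.8.3, STAR 2.5, the rn5 build and featureCounts 1.4.4, with DESeq2 1.16.1 size factors, per the submitters' processing notes; for Ion Proton they used TopHat2, Bowtie2 and featureCounts. Each deposited signal is a gene's read count divided by its library's size factor, not per length, and 100% of the values gave whole reads within 0.01. The labels name a stranded kit and the methods a kit that does not mark strand, so antisense overlap could not be judged. Values were log2(value + 1) transformed, genes with a mean under 10 in the fitted libraries were dropped, and each table was fitted with limma 3.58.1 (trend; R 4.3.3), Benjamini-Hochberg over all genes; a fold change on this scale understates low genes. Subfields were compared over all libraries, groups within a subfield, and interactions over all libraries. The 3 tables were normalised separately and never pooled.

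Named members were the 8 with the largest Illumina difference among those called in each pair of subfields, every member called for age, cognition or either aged group against young, and Cdh2, Cdh5, Cdh13, Cdh23, Pcdhb4, Pcdh17 and Pcdh19, of which the last 4 are named in the study; further members were chosen after their values were seen. The members, gene lists and tests were chosen with earlier results of these data known. Rats gave 1 library per subfield, so numbers pair the subfields by animal; deviations from the group means correlated with a median r of 0.09 (CA1 with CA3), 0.19 (CA1 with DG) and -0.03 (CA3 with DG). Each library is another rat within a subfield. Alternatives were a pseudocount of 0.1, no filter, quantile normalisation, edgeR 4.0.16 and DESeq2 1.42.0 on the recovered reads, the WT table, the rat block, the rat number series as a covariate or alone, and leaving out libraries. The fits were tested on simulated data with known changes. Promoter sequences came from RefSeq GRCr8, a build other than that of the tables, and were matched by symbol.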

Additional observations from a re-analysis of the deposited data

Results flagged for a closer look

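In 1 of 17 groups of young rats that could be checked, a library stood far from the rest. The highest young DG count of Cdh23 was 153, in rat R9881, and the nearest was 113, a gap of 0.512 of the group's range; without it the mean of the young DG group was 92.7. Chance alone gives such a gap in about 1 of 20 groups.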

How the results depend on the processing

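Calls of the named members between subfields were kept in 105 of 117, 134 of 143 and 111 of 117 combinations of member and alternative for CA1 and CA3, CA1 and DG, and CA3 and DG. In the rats numbered from 9000 up, 2 members were called between CA1 and CA3, and Cdh13 (-0.049) and Pcdh20 (0.193) turned direction there; 24 members were called with the WT data in place of the Ion Proton data. The replicate block on the rat gave 14, 27 and 29 members for the 3 pairs in place of 13, 24 and 27; among the named members it added Cdh2 for CA1 against DG (-0.13) and Cdh5 for CA3 against DG (0.38) and changed no other call of theirs. Interactions stayed at 0 members throughout.

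Counts for age and cognition moved more. Aged against young gave 5 members (series as covariate) and 1 (from 9000 up) in CA1; 5 (WT table), 0 (below 9000), 1 (from 9000 up) and 6 (without the 7 deeply sequenced rats) in CA3; and 2 (from 9000 up) in DG. Impaired against unimpaired gave 1 in CA1 with DESeq2, edgeR, the WT table or without the deeply sequenced rats, 1 in DG from 9000 up, and 0 in CA3 with the WT table, edgeR, the covariate, the series below 9000, or without the libraries nearer to another subfield, the deeply sequenced rats or the CA3 library of rat R9875. Impaired against young gave 1 in CA1 from 9000 up; 2 (DESeq2), 5 (WT table), 0 (below 9000) and 3 (without deeply sequenced rats) in CA3; and in DG 2 (DESeq2 or the covariate), 3 (WT table, or without the nearer libraries), 0 (from 9000 up) and 4 (without deeply sequenced rats). Unimpaired against young gave 3 in CA1 with the WT table or without the nearer libraries or deeply sequenced rats, 1 below 9000 and 2 from 9000 up; 1 in CA3 and 2 in DG from 9000 up. A single series holds fewer rats; the cause of the other moves was not tested. The settings of single series, of the deeply sequenced rats and of rats R9875 and R1931 were chosen after seeing the data. At these depths a member with a mean count under 10 could not be compared.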

Other observations

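The same RNA gave unlike counts of some members on the 2 instruments. Cdh22 in CA3 ran from 59.7 to 258 in the Illumina table and from 1.53 to 231 in the Ion Proton table, and Cdh19 was listed at 0 in at least 1 Ion Proton library of CA1 and of CA3, while its lowest Illumina counts there were 26.6 and 24.4.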
